A study of Mus musculus with 12 samples.

Results

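The acyl-CoA dehydrogenases and the electron transfer flavoproteins (ETF) were followed in fetal mouse liver with and without PPARα, the nuclear receptor encoded by *Ppara*. The set held 10 genes, chosen by their place in the pathway, with earlier results of these data known. They were the dehydrogenases *Acadvl*, *Acadl*, *Acadm* and *Acads*, the related *Acad9*, *Acad10* and *Acad11*, the ETF subunits *Etfa* and *Etfb*, and *Etfdh*. All 10 were measured, each on exactly 1 probeset that named no other gene, among 19938 genes in all. Whole livers came from fetuses at E19.5, the last day of gestation, delivered by cesarean section, with no drug or diet named in the labels. The groups were 6 *Ppara*-/- (PPARα-null) and 6 *Ppara*+/+ (wild-type) fetuses from matings of heterozygous parents. The labels give the strain as SV129, whereas the methods name a C57BL/6 background, and this was not resolved. Per the methods each genotype drew on fewer litters than livers, and the labels do not say which livers were littermates. RNA of 1 liver was hybridized to each Affymetrix Mouse Gene ST array, and values are log2 signals after RMA, on which a difference of 1 is a doubling.

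Mitochondrial β-oxidation shortens a fatty acid in repeated cycles, and each cycle opens with an acyl-CoA dehydrogenase that takes electrons from the acyl-CoA onto its FAD. The dehydrogenases differ in the chain length they accept, and all of them pass their electrons to ETF, a soluble heterodimer of the *Etfa* and *Etfb* products. ETF carries them to ETF-ubiquinone oxidoreductase, the product of *Etfdh* in the inner membrane, which reduces ubiquinone and so joins fat oxidation to the respiratory chain. In the liver PPARα is known to drive many genes of fatty acid oxidation, and the comparison asked which of them depended on it before the first milk.

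Most genes of this route were lower without PPARα, and *Etfdh*, at its membrane end, had the largest difference. By limma with Benjamini-Hochberg adjustment over all genes (threshold 0.05), 6 of the 10 genes were lower in *Ppara*-/- livers (*Etfdh*, *Acadvl*, *Etfb*, *Acad11*, *Acads* and *Acadl*), 0 were higher, and 4 were not called (*Etfa*, *Acadm*, *Acad9* and *Acad10*). Of all genes tested, 3.82% were called lower and 3.42% higher. The difference was negative for 9 of the 10 genes, with a median of -0.29 on the log2 scale, against 0.01 over all genes. In 7 of the 10 genes every *Ppara*-/- liver lay below every *Ppara*+/+ liver, a separation found in 2.29% of all genes. *Ppara* itself measured 9.83 ± 0.09 (SD, n = 6) in *Ppara*-/- and 10.84 ± 0.10 (SD, n = 6) in *Ppara*+/+ livers, and the part of the gene covered by its probeset is not given in the labels or methods. In whole liver, fewer cells of a type and less RNA per cell cannot be told apart.

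**Figure D1:**
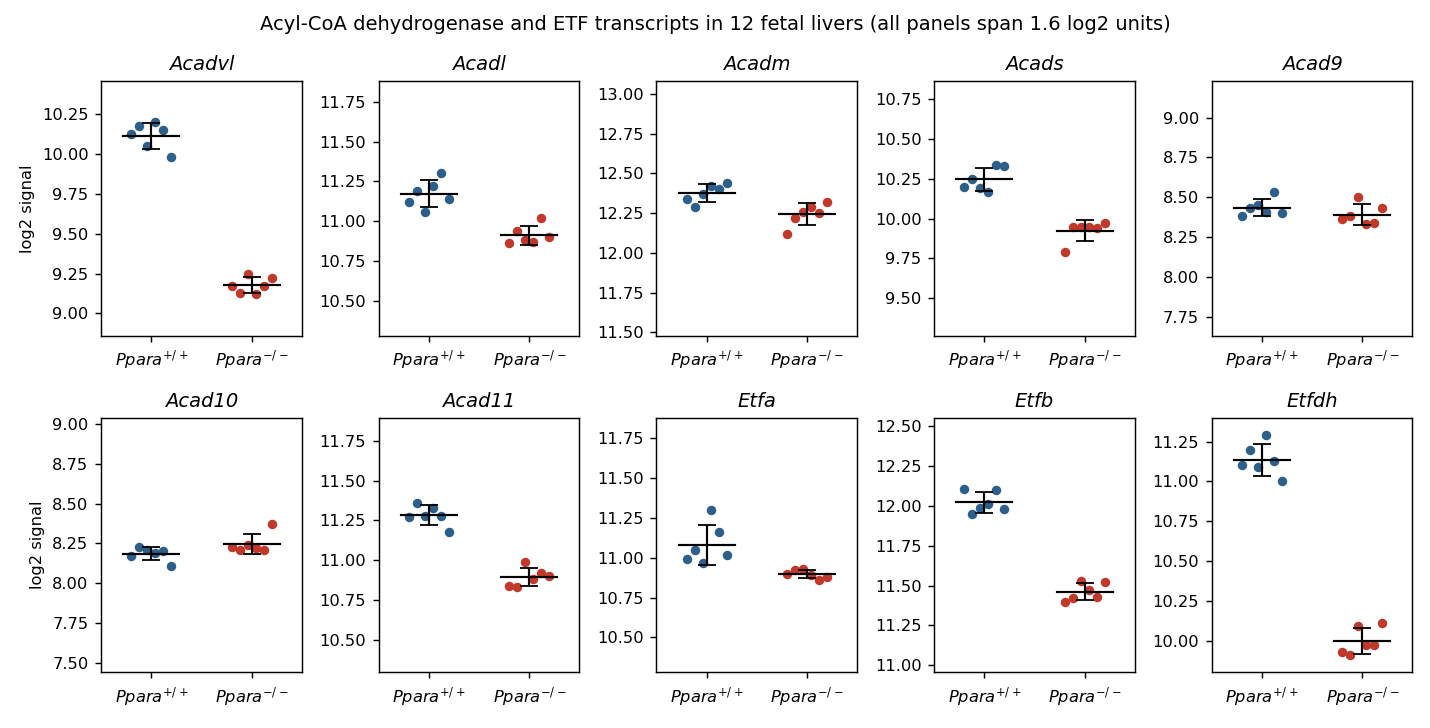
Log2 signal (y axis) of each of the 10 genes in the 6 *Ppara*+/+ (blue) and 6 *Ppara*-/- (red) livers, 1 point per liver, with the mean (long bar) and SD (error bar). Every panel spans the same number of log2 units. *Etfdh*, *Acadvl* and *Etfb* show clear space between the groups, with gaps of 0.89, 0.73 and 0.41 between the nearest livers, whereas *Acad9* and *Acad10* overlap.

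The 250 bases before the transcription start are printed for the 3 genes with the largest differences and for *Etfa* and *Acadm*, which were not called, because the differences were unequal and PPARα is known to bind a direct repeat. Sequences and coordinates are those of RefSeq on GRCm38.p6, read 5′ to 3′ along the gene, and 9 of the 10 genes had an entry. Capitals mark matches to the repeat AGGTCANAGGTCA, searched on both strands with at most 2 mismatches outside the N, and exact single copies of AGGTCA on either strand.
Etfdh promoter (chr3:79628768-79629017, minus strand): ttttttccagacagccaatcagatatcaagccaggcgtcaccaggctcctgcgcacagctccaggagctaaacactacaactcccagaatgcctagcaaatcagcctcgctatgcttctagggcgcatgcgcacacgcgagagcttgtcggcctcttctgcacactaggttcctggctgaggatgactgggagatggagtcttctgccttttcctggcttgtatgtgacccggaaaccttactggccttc
Acadvl promoter (chr11:70015429-70015678, minus strand): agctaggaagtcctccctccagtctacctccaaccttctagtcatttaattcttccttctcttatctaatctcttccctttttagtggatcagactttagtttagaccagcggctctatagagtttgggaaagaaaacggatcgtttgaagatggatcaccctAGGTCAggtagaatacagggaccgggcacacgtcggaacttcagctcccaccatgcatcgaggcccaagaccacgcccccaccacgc
Etfb promoter (chr7:43443822-43444071, plus strand): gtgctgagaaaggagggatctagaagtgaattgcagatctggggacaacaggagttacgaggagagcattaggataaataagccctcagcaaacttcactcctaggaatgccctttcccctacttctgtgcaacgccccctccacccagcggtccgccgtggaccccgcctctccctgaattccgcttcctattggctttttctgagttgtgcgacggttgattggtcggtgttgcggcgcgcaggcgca
Etfa promoter (chr9:55512244-55512493, minus strand): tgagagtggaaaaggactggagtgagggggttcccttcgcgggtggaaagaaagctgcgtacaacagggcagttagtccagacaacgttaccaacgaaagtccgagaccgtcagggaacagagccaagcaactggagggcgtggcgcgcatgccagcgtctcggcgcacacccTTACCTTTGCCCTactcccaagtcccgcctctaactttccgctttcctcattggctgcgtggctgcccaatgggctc
Acadm promoter (chr3:153944644-153944893, minus strand): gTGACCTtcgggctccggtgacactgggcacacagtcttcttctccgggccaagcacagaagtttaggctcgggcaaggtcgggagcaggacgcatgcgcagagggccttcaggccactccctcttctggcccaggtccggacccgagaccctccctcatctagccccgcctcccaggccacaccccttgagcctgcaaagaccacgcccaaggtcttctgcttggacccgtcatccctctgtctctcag
The repeat within 2 mismatches was found in 1 of the 9 promoters, that of *Etfa*, on the minus strand relative to the gene, and in 3.24% of the 32851 mouse promoters of the table. An exact single copy was found in 2 of the 9, *Acadvl* and *Acadm*, against 14% of all promoters, and no match of one kind overlapped the other here. The *Etfdh* and *Etfb* windows held neither. These letters describe a short window only. The GC content of the 9 windows ran from 49.6% in *Acadvl* to 79.6% in *Acad10*, with a median of 52.4% over all promoters.

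Among the dehydrogenases of straight-chain fatty acids, the one for the longest chains changed the most. *Acadvl*, whose product acts on very-long-chain acyl-CoA at the inner membrane, ran from 9.12 through a median of 9.17 to 9.25 in the *Ppara*-/- group and from 9.98 through 10.14 to 10.20 in the *Ppara*+/+ group. The groups were far apart, and the highest *Ppara*-/- liver was 0.73 below the lowest *Ppara*+/+ liver. The difference was -0.94 ± 0.05 (SE, limma adjusted p = 1.2e-08), so that 52.1% of the wild-type signal remained, and it ranked 71 from the lowest among all genes.

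*Acadl*, the long-chain enzyme, ran from 10.86 through 10.89 to 11.02 in the *Ppara*-/- group and from 11.06 through 11.16 to 11.30 in the *Ppara*+/+ group. The groups did not overlap, but the nearest livers were only 0.04 apart. Its difference was -0.26 ± 0.05 (SE, limma adjusted p = 0.0046), with 83.5% of the signal left. *Acads*, the short-chain enzyme, ran from 9.79 through 9.95 to 9.97 without PPARα and from 10.17 through 10.22 to 10.34 with it. Here 5 of the 6 *Ppara*-/- livers lay within 9.94 to 9.97 and mouse 1 stood below them. The difference was -0.32 ± 0.05 (SE, limma adjusted p = 8.4e-04), and without that liver it was -0.30 (adjusted p = 6.5e-04).

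*Acadm*, the medium-chain enzyme, was not called. It ran from 12.12 through 12.26 to 12.32 in the *Ppara*-/- group and from 12.29 through 12.39 to 12.44 in the *Ppara*+/+ group, and 4 of the 6 *Ppara*-/- livers lay below every *Ppara*+/+ liver. Its difference was -0.13 ± 0.05 (SE, limma adjusted p = 0.095), with a 95% interval from -0.23 to -0.04. The difference of *Acadvl* lies far outside this interval and that of *Acadl* just outside it.

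Of the subunits of the ETF heterodimer only *Etfb* was called. *Etfb* ran from 11.40 through 11.45 to 11.53 in the *Ppara*-/- group and from 11.95 through 12 to 12.11 in the *Ppara*+/+ group, with no overlap. Its difference was -0.56 ± 0.04 (SE, limma adjusted p = 1.7e-06), and 67.7% of the signal remained. *Etfa* ran from 10.86 through 10.89 to 10.93 without PPARα and from 10.97 through 11.03 to 11.30 with it. There was no overlap between the groups, yet the wild-type SD of 0.13 was the larger of the groups, with *Ppara*+/+ mouse 4 the highest at 11.30. The difference of -0.18 ± 0.05 (SE) missed the threshold (limma adjusted p = 0.057, 95% interval -0.30 to -0.07).

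*Etfdh*, the oxidoreductase that takes electrons from ETF, ran from 9.91 through 9.97 to 10.11 in the *Ppara*-/- group and from 11 through 11.12 to 11.29 in the *Ppara*+/+ group. The groups were separated by 0.89 at their nearest livers. The difference was -1.14 ± 0.06 (SE, limma adjusted p = 9.0e-09), a 2.2-fold decrease that left 45.5% of the signal and ranked 46 from the lowest among all genes. *Etfdh* overlaps *Ppid*, a cyclophilin gene, and starts 312 bases from the oppositely transcribed 4930579G24Rik. Neither neighbour was called, with differences of -0.06 for *Ppid* (limma adjusted p = 0.47) and 0.10 for 4930579G24Rik (adjusted p = 0.28).

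Of the 3 atypical family members only *Acad11* was called. *Acad11*, which carries a kinase-like domain beside its dehydrogenase domain, ran from 10.83 through 10.89 to 10.99 in the *Ppara*-/- group and from 11.18 through 11.28 to 11.36 in the *Ppara*+/+ group. The groups did not overlap, and the difference was -0.39 ± 0.04 (SE, limma adjusted p = 7.1e-05), with 76.3% of the signal left. *Acad10*, which also carries such a domain, ran from 8.21 through 8.23 to 8.37 without PPARα and from 8.11 through 8.20 to 8.23 with it. Its groups overlapped, and the 95% interval of the difference of 0.06 reached from -0.03 to 0.15 (limma adjusted p = 0.49). *Acad10* overlaps *Brap*, which starts next to it on the opposite strand and differed by 0.25 (adjusted p = 0.13).

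*Acad9* is best known as an assembly factor of respiratory complex I. It ran from 8.33 through 8.37 to 8.50 in the *Ppara*-/- group and from 8.38 through 8.42 to 8.53 in the *Ppara*+/+ group, so that the groups overlapped over most of their range. The difference was -0.05, with a 95% interval from -0.14 to 0.05 (limma adjusted p = 0.64). For both *Acad9* and *Acad10* these intervals leave out a decrease of the size seen in any of the 6 called genes.

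**Figure D2:**
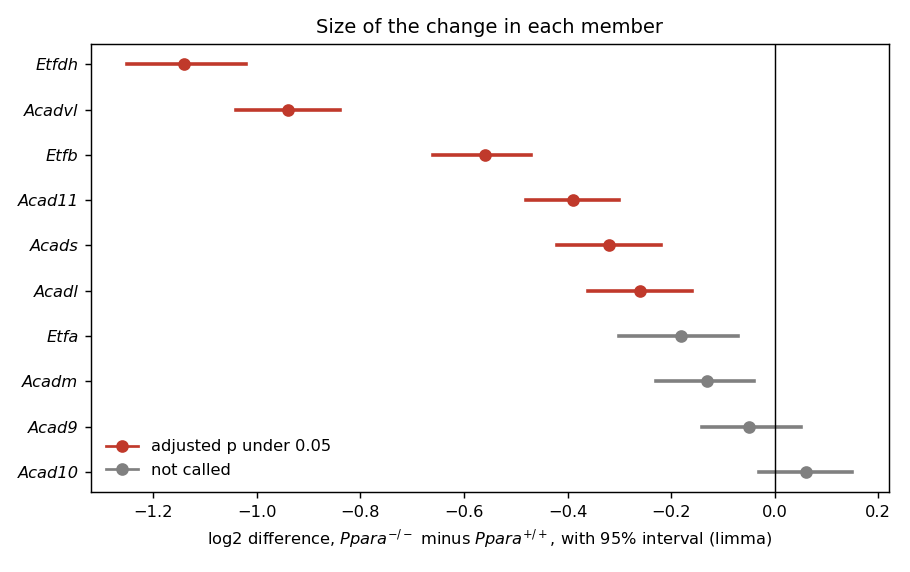
Log2 difference between genotypes (x axis, *Ppara*-/- minus *Ppara*+/+) for each of the 10 genes (y axis), with its 95% interval from limma; red marks an adjusted p under 0.05 and grey the genes not called. The differences run from -1.14 for *Etfdh* to 0.06 for *Acad10*.

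In the order of these differences the intervals of *Etfdh* (-1.25 to -1.02) and *Acadvl* (-1.04 to -0.84) overlapped, and both lay wholly below that of *Etfb* (-0.66 to -0.47). The interval of *Etfb* met that of *Acad11* (-0.48 to -0.30), and those of *Acads* (-0.42 to -0.22) and *Acadl* (-0.36 to -0.16) overlapped with it. The unequal sizes were then tested within livers for 6 pairs of partners, as log2 ratios of one gene to the next, since a ratio within an array is free of any shift of the whole array. With 6 livers against 6 an exact two-sided permutation test cannot give a p below 0.0022, and p-values were adjusted over the 6 pairs.

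Along the electron route, *Etfdh* fell relative to both ETF subunits. The *Etfdh* to *Etfa* ratio lay between -1.01 and -0.77 without PPARα and between -0.03 and 0.15 with it, a difference of -0.95. The *Etfdh* to *Etfb* ratio ran from -1.51 to -1.41 and from -1.01 to -0.72 in the same order, a difference of -0.57. Within the heterodimer the *Etfa* to *Etfb* ratio was higher without PPARα, at -0.64 to -0.50 against -1.12 to -0.71, a difference of 0.38. The groups did not overlap in any of these ratios, and each had an adjusted exact permutation p of 0.0026. Any one of these ratios follows from the others, so they are not separate results. Such ratios compare changes, since the levels of different probesets are not on a common scale.

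Along the chain-length series the changes were unequal too. The *Acadvl* to *Acadl* ratio lay between -1.84 and -1.63 without PPARα and between -1.16 and -0.99 with it, a difference of -0.68 (adjusted exact permutation p = 0.0026). The *Acadm* to *Acads* ratio was higher without PPARα, at 2.28 to 2.35 against 2.04 to 2.25, a difference of 0.19 (adjusted exact permutation p = 0.0026). The *Acadl* to *Acadm* ratio differed by -0.13, with overlapping groups, and its adjusted exact permutation p of 0.041 rose to between 0.054 and 0.082 when *Ppara*-/- mouse 3, 4 or 6 or *Ppara*+/+ mouse 1, 2, 4 or 5 was left out. The differences were thus not in the order of chain length, with *Acads* lowered relative to *Acadm* and *Acadvl* relative to *Acadl*. The mean signal of *Acadm* was at percentile 99.4 of all genes, that of *Etfb* at 98.6 and that of *Acads* at 91.2. Whether such brightness affects the size of a difference was not tested.

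**Figure D3:**
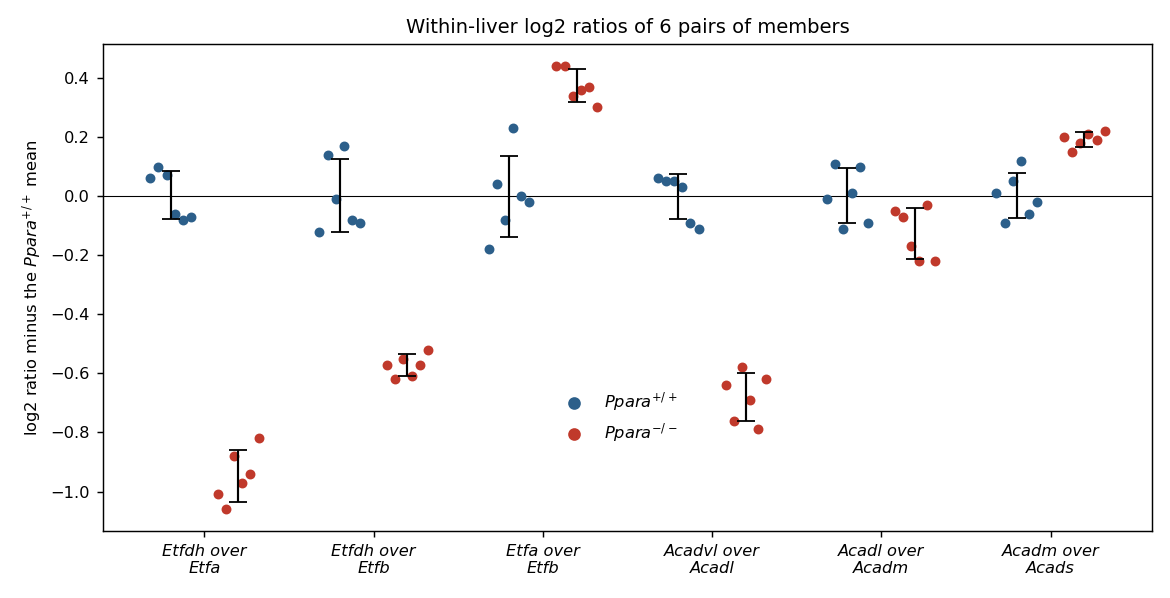
Log2 ratio of paired genes within each liver, with the *Ppara*+/+ mean of that ratio set to 0 (y axis), for 6 pairs (x axis); points are single livers (blue *Ppara*+/+, red *Ppara*-/-) and bars the mean ± SD. The groups are apart in 5 pairs and overlap for *Acadl* over *Acadm*.

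In parts of the data the 3 largest differences stayed called and the smaller ones did not always. In the 6 livers of lowest animal number (2 *Ppara*-/-, 4 *Ppara*+/+) and the 6 of highest (4 and 2), the difference of *Etfdh* was -1.25 and -1.03, that of *Acadvl* -0.99 and -0.88, and that of *Etfb* -0.61 and -0.55, each with a limma adjusted p under the threshold in both parts. *Acadl*, at -0.24 and -0.30, passed in neither (adjusted p = 0.26 and 0.14), *Acads* was not called at -0.34 in the lowest numbers (adjusted p = 0.10) and was called at -0.38 in the highest (adjusted p = 0.028). *Acad11* was called at -0.48 in the lowest numbers (limma adjusted p = 0.014) and not at -0.31 in the highest (adjusted p = 0.091). By their sex-linked transcripts 5 *Ppara*-/- and 3 *Ppara*+/+ livers were female. They include all 6 livers of highest animal number, and every male liver was among the lowest numbers. The splits by number and by sex are therefore not separate checks, and animal number and sex cannot be told apart in them. Among these female livers alone *Etfdh* differed by -1.06, *Acadvl* by -0.90, *Etfb* by -0.60, *Acads* by -0.37 and *Acad11* by -0.34, all called, whereas *Acadl* differed by -0.28 and was not (limma adjusted p = 0.10).

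Of the cell type markers, 4 were called, with differences between 0.23 and 0.42 in size, a range that holds those of *Acad11*, *Acads* and *Acadl*. Of 6 measured hepatocyte markers 0 were called, and their mean level was 13.20 to 13.22 in *Ppara*-/- and 13.17 to 13.24 in *Ppara*+/+ livers, near the highest value of 13.91 on the arrays. Of 7 erythroid markers 0 were called (11.39 to 11.55 against 11.27 to 11.52). Of 8 macrophage markers 2 were higher in *Ppara*-/- livers (*Cd5l* by 0.40 and *Csf1r* by 0.23), and the mean level of the list was 9.20 to 9.39 against 9.16 to 9.28. With the erythroid or the macrophage level as a covariate all 6 called members stayed called, each in the same direction. Both levels overlapped between the genotypes, so these fits cannot decide what part cell composition had. Of 3 hepatoblast markers 1 was higher (*Dlk1*, by 0.42, limma adjusted p = 0.033), and the mean level of the list was 12.42 to 12.58 against 12.24 to 12.50, whose part in the members' differences was not tested. Of 8 granulocyte, 6 endothelial and 4 cholangiocyte markers 0 were called, and of 6 stellate and fibroblast markers 1 was lower (*Des*, difference -0.39).

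Within a genotype the members did not all vary together. Over the 12 livers, as deviations from the genotype means, the 45 pairs of members had a median Pearson r of 0.29, from -0.20 for *Acadvl* with *Acads* to 0.87 for *Acadvl* with *Etfdh*. *Acadvl* was the 5th gene of all in likeness to *Etfdh*, behind *Olfr171* (r = 0.94), *Xiap* (0.93), *Ghitm* (0.89) and *Slc25a13* (0.88), and *Acad11* (r = 0.80) was number 40. *Olfr171* measured 3.03 and 3.15 in the genotypes, near the lowest value of 1.95 on the arrays. *Acad10*, which was not called, had an r of 0.68 with *Etfdh*. *Acadm* and *Acads* had an r of 0.65, though *Acads* was only number 976 of all genes in likeness to *Acadm*. The r of *Acadm* and *Acads* with *Acadvl* was -0.15 and -0.20. The genes most like *Acadm* were *Bex1* and *Aco1* (r = 0.95 each) and *Magt1*, *Kcng3* and *Aox3* (r = 0.94 each). These values describe 12 arrays of livers that may share litters. *Ppara*-/- mouse 1 lay below its group mean in 10 of the 10 genes, by a median of 0.05 (log2 deviation -0.05), and *Ppara*-/- mice 3 and 6 and *Ppara*+/+ mouse 5 lay above theirs in 8 of 10.

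**Figure D4:**
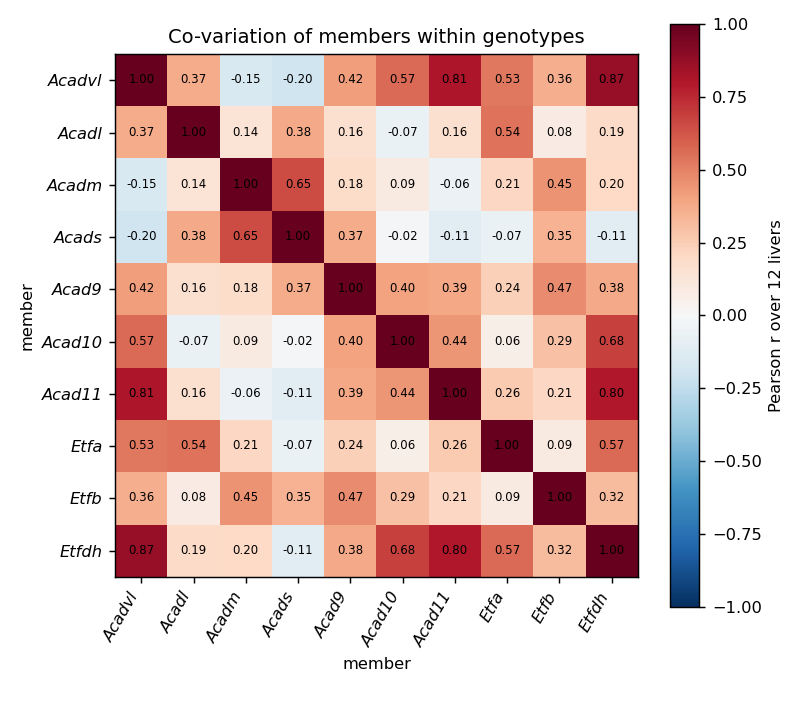
Pearson r (colour and printed value) between the deviations of 2 genes from their genotype means over the 12 livers, for all pairs of the 10 genes (both axes). *Acadvl*, *Acad11* and *Etfdh* have r from 0.80 to 0.87 with one another. *Etfdh* and *Acad10* reach 0.68, and *Acadm* and *Acads* 0.65.

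The other enzymes of mitochondrial β-oxidation were lower in part. Of 15 listed, 13 were measured on a probeset of their own: 7 were lower, 0 higher and 6 not called, with a median difference of -0.23. *Slc25a20*, the carnitine-acylcarnitine carrier, differed by -1.65 (limma adjusted p = 2.2e-09), *Eci1*, an enoyl-CoA isomerase for unsaturated chains, by -1.03 (1.6e-07), *Decr1*, the dienoyl-CoA reductase, by -0.71 (5.6e-07) and *Cpt2*, the inner carnitine palmitoyltransferase, by -0.52 (6.2e-06). Also singled out after the values were seen was *Cpt1a*, the outer carnitine palmitoyltransferase that admits fatty acids, at -1.88 (limma adjusted p = 5.0e-05). The following genes of the hydratase, hydroxyacyl-CoA dehydrogenase and thiolase steps, singled out likewise, had smaller differences than *Cpt2*. The trifunctional protein subunits *Hadhb* and *Hadha* differed by -0.43 (limma adjusted p = 1.5e-04) and -0.16 (0.026), and that of *Hadhb* exceeded in size the -0.39 of *Acad11*. The short-chain hydratase *Echs1*, the hydroxyacyl-CoA dehydrogenase *Hadh* and the thiolase *Acaa2* differed by -0.06, -0.03 and -0.01, none of them called. The call of *Hadha* held in 17 of 28 alternative limma fits.

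Other dehydrogenases that feed ETF or belong to the family gave few calls. Of 8 measured, most of which act on branched-chain amino acids, lysine, choline or hydroxyglutarate, 1 was lower, 1 higher and 6 not called, with a median of -0.01. *Gcdh*, glutaryl-CoA dehydrogenase of lysine breakdown, differed by -0.19 (limma adjusted p = 0.025), called in 23 of 28 alternative fits. *Acadsb*, the short/branched-chain dehydrogenase of isoleucine breakdown, was higher without PPARα. It ran from 9.63 through 9.74 to 9.86 in the *Ppara*-/- group and from 9.38 through 9.52 to 9.63 in the *Ppara*+/+ group. All 6 *Ppara*-/- livers lay above the others, but the gap between the nearest livers rounded to 0. The difference was 0.23 (limma adjusted p = 0.012) and was not called with the macrophage level as a covariate (adjusted p = 0.075) or in the female livers (0.22).

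The cofactor and acceptor side of the route was also largely without calls. Of 3 measured peroxisomal acyl-CoA oxidases, which pass electrons to oxygen in place of ETF, 0 were called. Of 3 measured genes of riboflavin uptake and FAD supply 0 were called, with differences from -0.03 to 0.05. Of the partner genes of ETF, *Etfrf1*, a regulatory factor that binds ETF, differed by -0.23 (limma adjusted p = 0.034, called in 14 of 28 alternative fits) and *Etfbkmt*, the ETFB lysine methyltransferase, by -0.06. Of 12 measured ubiquinone genes 2 were lower, *Coq10b* by -0.38 (adjusted p = 0.0034) and *Coq7* by -0.18 (adjusted p = 0.047, called in 9 of 27 alternative fits), and of 9 complex III subunits 1 was lower, *Uqcrq* by -0.16 (adjusted p = 0.028, called in 17 of 28 alternative fits). Although *Acad9* was not called, 2 of 5 measured partners in complex I assembly were lower, *Timmdc1* by -0.31 (adjusted p = 0.0036) and *Ndufaf1* by -0.24 (adjusted p = 0.0049).

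**Figure D5:**
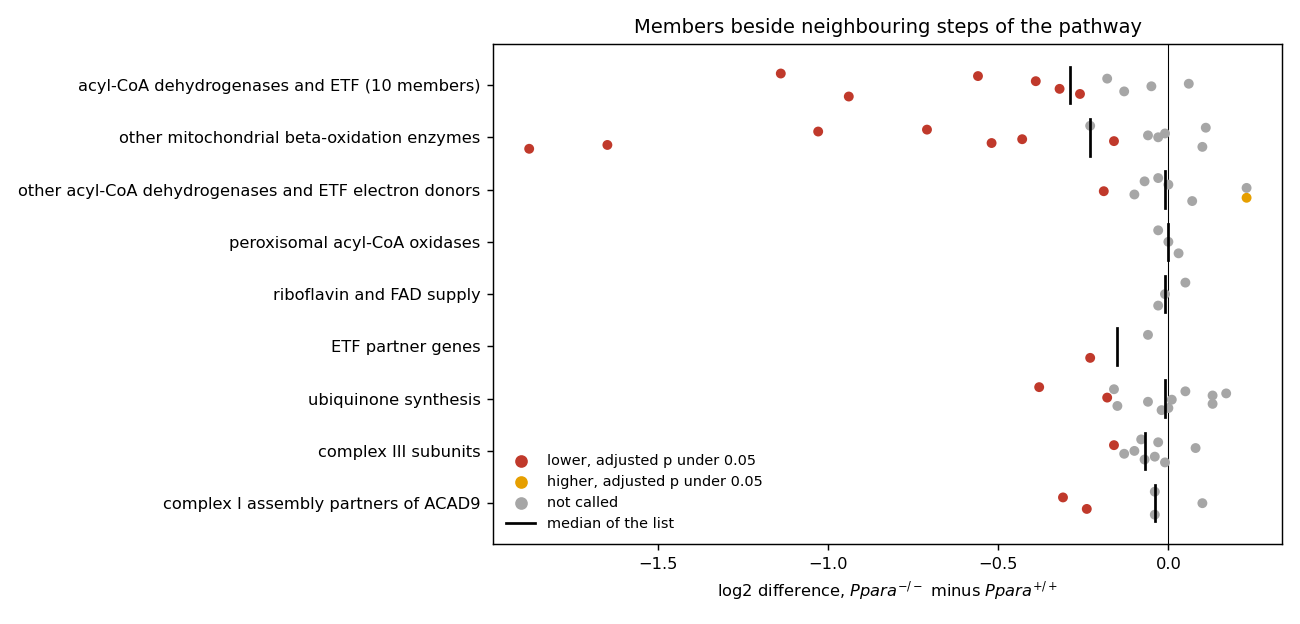
Log2 difference between genotypes (x axis, *Ppara*-/- minus *Ppara*+/+) for the 10 genes and for the measured genes of 8 neighbouring lists (rows), 1 point per gene, coloured by its limma call, with the median of each list as a black bar. The medians of the 10 genes and of the other β-oxidation enzymes are -0.29 and -0.23, and those of the other lists lie between -0.15 and 0.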

How the data were processed

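Whole livers of 6 *Ppara*-/- and 6 *Ppara*+/+ fetuses were profiled, grouped by labelled genotype and named by the mouse number in each title. The deposited unit is the log2 signal that the authors computed with RMA (background correction, normalization between arrays and summary of probes per probeset). Neither the version of RMA nor a genome build is stated in the sources used here. Of 35556 probesets, 21789 named 1 gene. The probeset with the highest mean was taken per gene, giving 19938 genes with no filter on dim signal. Array medians ran from 6.71 to 6.75. Arrays carry no read depth, and their number limits the precision.

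Each gene's difference was tested with limma 3.58.1 (lmFit, eBayes; R 4.3.3; two-sided, no covariates) and adjusted by Benjamini-Hochberg over all genes. The script was checked on simulated data. Within-liver ratios were tested over all arrangements of the livers with numpy 2.4.6 in Python 3.11.15. The p-values treat littermates as independent. Alternatives covered probeset choice, normalization, dim genes, weights, covariates, blocks, subsets and each liver left out. Named were all 10 members, *Ppara*, of each pathway list up to 4 genes of smallest p (in some lists only those called) and any called against the majority, and the 5 genes most like *Etfdh* and *Acadm*. The members and lists were chosen with earlier results of these data known.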

Additional observations from a re-analysis of the deposited data

Results flagged for a closer look

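In 2 of the 20 groups of 6 livers (10 genes in each genotype), 1 liver stood apart from the other 5 by Dixon's criterion, which chance meets in about 1 group in 20. *Acads* in *Ppara*-/- mouse 1 was 9.79, below the 9.94 to 9.97 of the other *Ppara*-/- livers, a gap of 0.82 of the whole range. *Acad10* in *Ppara*-/- mouse 6 was 8.37, above the 8.21 to 8.24 of the others, a gap of 0.81 of the range. The cause of neither was tested.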

How the results depend on the processing

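Over 28 alternative limma fits with 11 or 12 livers, 271 of 280 values of the 10 members kept their direction and their side of the threshold, 9 gained a call, and 0 lost one or reversed. *Etfa* was called in 5 fits, among them that without *Ppara*+/+ mouse 6 (adjusted p = 0.049), and *Acadm* in 4. By an exact Mann-Whitney test 0 members and 0 genes in either direction passed (smallest adjusted p 0.06), and 8 members and 3686 genes had an unadjusted p under 0.05. That exact Mann-Whitney test cannot give a p below 0.0022 here, so even genes with complete separation of the groups could not pass after adjustment. Counts over all genes moved more. Lower and higher genes numbered 1457 and 1286 with array weights, 449 and 401 with a sex score, 437 and 158 with a macrophage score (chosen after seeing the data), 163 and 30 in the 6 lowest animal numbers, 106 and 117 in the 6 highest, and 126 and 30 in female livers (chosen after seeing the data). Higher genes numbered 422 with low and high animal numbers as a block. Leaving out 1 liver gave 447 to 1147 lower and 384 to 1374 higher genes, and values of -0.15 to -0.11 for the *Acadl* to *Acadm* ratio. Deviations of same-numbered livers correlated from 0.02 to 0.39. Differently numbered livers were not compared, so these values cannot decide whether mouse numbers pair the livers. With the replicate block 823 genes were lower and 796 higher, *Etfdh* differed by -1.14 (adjusted p = 1.1e-05), and the same 6 members were called.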
